A study of Mus musculus with 6 samples.

Results

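The Slc genes encode the solute carriers, the membrane proteins that move small molecules across the plasma membrane and the membranes of organelles. Their members were taken as every gene whose single platform symbol is Slc followed by a digit, each on its probe set with the highest mean. The array named 262 such genes on 419 probe sets, and 135 of them reached log2 4 on at least 3 of the 6 arrays, out of 7644 genes that did so in all. The other 127 were not tested, and 114 of these lay below log2 4 on each array. The 135 tested genes were sorted into 7 substrate classes by gene family, plus 3 genes that carry an Slc symbol but encode no transporter.

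The arrays came from the mouse lines KPR4, KPR5 and KPR8, 3 adenocarcinoma-derived lines of a lung cancer study whose strain is given as C57/B6-129SvJae. Each line was treated with 250 nM 4-OH tamoxifen in ethanol for 24 h, which reactivates p53 per the series' design, or with the ethanol vehicle. That gave 3 treated and 3 vehicle arrays, 1 for each line and treatment, so the lines are the replicates of the treatment comparison. The labels do not say how the lines were derived or whether each is a single clone, and with 1 array per line and treatment a difference in response between lines could not be tested.

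All 7 epithelial markers passed the expression filter, with levels between 4.13 and 13.50 (log2), and the keratin genes Krt8, Krt18 and Krt19 lay between 11.05 and 13.50 on all arrays. With 4-OH tamoxifen the tight junction gene Cldn4 (0.89 ± 0.18, SE, adjusted p = 0.00318) and the cadherin gene Cdh1 (0.30 ± 0.10, adjusted p = 0.046) were higher. Epcam was lower (-0.37 ± 0.12, adjusted p = 0.0462), and each of these 3 moved the same way in every line. Of the lung epithelial markers, Abca3 and Aqp5 passed the expression filter, whereas Nkx2-1, Sftpa1, Sftpb, Sftpc, Sftpd, Scgb1a1 and Napsa did not exceed 3.13 on any array. Foxj1, a marker of ciliated cells, was under the filter, at 3.50, 3.74 and 4.41 on treated arrays of KPR4, KPR5 and KPR8, against 2.50, 2.89 and 3.48 on vehicle arrays. Of the leukocyte markers, Ptprc stayed between 1.62 and 2.05, while Cd68, also a general lysosomal protein, was higher with 4-OH tamoxifen (1.02 ± 0.15, SE, adjusted p = 0.0002, or 0.000467 without a filter). Cd68 reached log2 4 on the 3 treated arrays and on 0 vehicle arrays, so it entered the test through the group where it was high. Cd3e, the other leukocyte marker tested, had a change of -0.15 (adjusted p = 0.566). The summed linear level of the 5 leukocyte markers was 52.83 to 61.75 on treated arrays and 43.83 to 47.35 on vehicle arrays, and without Cd68 it was 29.3 to 33.4 on treated arrays and 30.3 to 36.7 on vehicle arrays. Of 6 fibroblast markers 3 were tested and 0 passed the threshold, with Col1a1 the brightest at up to 7.73. The 4 endothelial markers, at 2.67 to 4.01, were not tested. The level of Bacillus control probe sets, which match no mouse transcript, was 1.13 to 2.84. Cdkn1a, the p53-induced inhibitor of cyclin-dependent kinases, averaged 11.09 ± 0.30 on treated arrays and 6.46 ± 1.11 on vehicle arrays (SD, n = 3 each). In a culture a lower signal can mean less RNA per cell or fewer cells that hold it, and these arrays cannot tell these apart.

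Carriers fall into families by sequence, and family members often share a class of substrate. Plasma membrane carriers bring in glucose, amino acids, ions and vitamins, and some work as exchangers or need a partner chain. The carriers of the SLC25 family serve mostly the inner mitochondrial membrane, and those of the SLC35 family bring nucleotide sugars into the Golgi and endoplasmic reticulum for glycosylation. p53 is known to act on several carriers in other settings, raising the thiamine carrier SLC19A2 and lowering the cystine carrier SLC7A11 and the glucose carriers SLC2A1 and SLC2A4.

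Of the 135 genes, 13 were higher and 8 lower with 4-OH tamoxifen in the limma fit, against a background of 10.5% higher and 8.94% lower among all genes tested. The members' shares were 9.63% and 5.93%, and 21 calls in either direction made 15.6% against 19.5%. Neither share was above that of all genes tested. Treated arrays lay all above the vehicle arrays in 8 members (5.93%, against 7.48%) and all below in 5 (3.70%, against 8.20%). At an unadjusted p under 0.05 in the same fit, 29 members were higher and 15 lower (21.5% and 11.1%, against 17.4% and 15.4% of all genes tested). Their median log2 change was 0.08, beside 0.00 for all genes tested. The largest rise was that of Slc19a2 and the largest fall that of Slc7a5, and 5 members in all changed by log2 1 or more. Without KPR5 the count of lower members was 2, and with 1 line left out the count of higher members was 9 to 11. The call held without each line in turn for 9 of the 21 genes, namely Slc19a2, Slc33a1, Slc31a2 (which passed the filter through its treated arrays alone), Slc12a4, Slc25a36, Slc25a20, Slc48a1, Slc7a5 and Slc14a1.

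**Figure D1:**
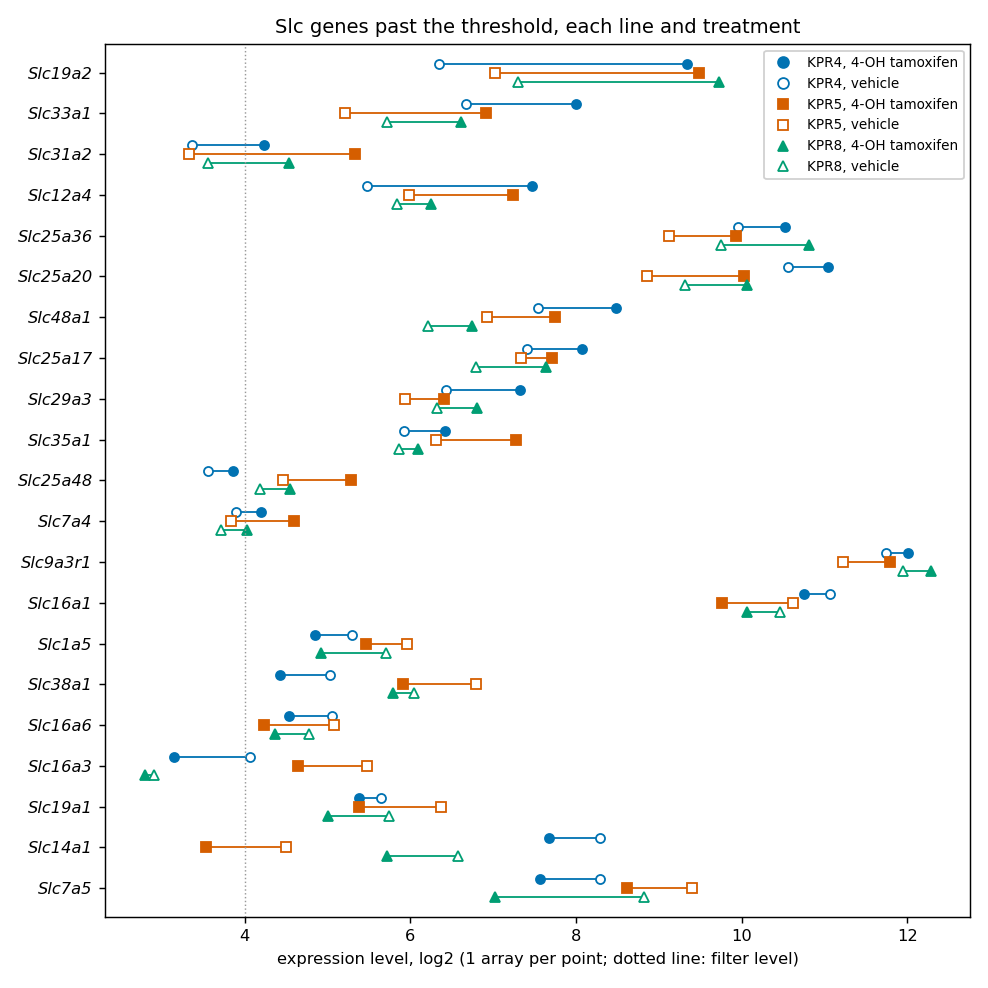
Log2 expression level of the 21 Slc genes past the threshold, with 1 point per array. Filled symbols are 4-OH tamoxifen arrays and open symbols vehicle arrays of the same line, joined by a bar, and the dotted line marks log2 4; the bars of Slc19a2 are the longest, and for every gene the 3 bars run the same way.

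The sequences upstream of the 4 genes that rose by log2 1 or more are given here, as these genes had the largest rises. They are the 250 bases before the start of the RefSeq transcript in GRCm38.p6, read 5′ to 3′ on the gene's strand, and that of Slc31a2 lies inside the annotated extent of its gene. The motifs searched on both strands were the p53 decamer by its consensus, TGATGNAA (the amino acid response element bound by ATF4), CACGTG (the E-box), TGACNNNGC (the antioxidant response element) and TTTCGCGC (an E2F site). Capitals mark any match. The windows lie at chr1:164248796-164249045 (plus strand) for Slc19a2, chr3:63964734-63964983 (minus strand) for Slc33a1, chr4:62286179-62286428 (plus strand) for Slc31a2 and chr8:105966116-105966365 (minus strand) for Slc12a4.
Slc19a2: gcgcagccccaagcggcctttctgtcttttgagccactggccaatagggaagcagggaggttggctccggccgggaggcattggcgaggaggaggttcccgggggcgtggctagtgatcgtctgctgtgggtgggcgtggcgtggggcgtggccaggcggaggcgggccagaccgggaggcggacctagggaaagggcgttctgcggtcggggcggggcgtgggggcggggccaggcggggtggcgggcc
Slc33a1: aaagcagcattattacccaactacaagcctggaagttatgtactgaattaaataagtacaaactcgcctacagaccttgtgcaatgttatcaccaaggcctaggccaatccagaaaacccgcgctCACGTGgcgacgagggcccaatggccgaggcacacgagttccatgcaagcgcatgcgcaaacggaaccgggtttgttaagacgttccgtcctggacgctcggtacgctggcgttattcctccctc
Slc31a2: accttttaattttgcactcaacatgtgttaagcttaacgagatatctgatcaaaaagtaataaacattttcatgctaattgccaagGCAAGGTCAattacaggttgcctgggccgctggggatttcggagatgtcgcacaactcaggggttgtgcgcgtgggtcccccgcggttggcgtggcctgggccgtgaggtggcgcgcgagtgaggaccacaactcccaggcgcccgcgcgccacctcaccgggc
Slc12a4: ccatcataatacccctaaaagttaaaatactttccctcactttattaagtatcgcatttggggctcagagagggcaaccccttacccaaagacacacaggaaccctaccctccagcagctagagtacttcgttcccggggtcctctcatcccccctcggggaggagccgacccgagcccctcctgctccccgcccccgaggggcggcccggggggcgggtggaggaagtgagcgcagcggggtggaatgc

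The Slc33a1 window held 1 E-box, starting 125 bases before the transcript start, and the Slc31a2 window held 1 match to TGACNNNGC. Among all 32851 RefSeq windows of the same length, 6.02% held CACGTG and 10.2% held TGACNNNGC. Among the 131 windows of 101 tested members the shares were 12.2% and 19.1%. The p53 decamer was in 7.13% of all windows and in 0 of the 11 windows of rising members found in the table, a statement about these letters in this stretch and not about binding of p53. Neither TGATGNAA (3.45% of all windows) nor TTTCGCGC (0.256%) was found in those 11 windows. The windows differed in base composition, from 73.2% G and C for Slc19a2 to 52.4% for Slc33a1.

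Among carriers of vitamins, lipids, choline and organic ions, 20 of 48 named genes were tested. Of these, 1 rose and 1 fell, beside 10.5% and 8.94% of all genes tested, and the 2 belong to the same family. At an unadjusted p under 0.05 in limma, 3 of the 20 were higher and 4 lower, beside 17.4% and 15.4% of all genes tested. Slc19a2, the high-affinity thiamine carrier of the plasma membrane, read 9.34, 9.49 and 9.73 on the treated arrays of KPR4, KPR5 and KPR8, against 6.35, 7.03 and 7.30 on their vehicle arrays (log2 level). Every treated array lay above every vehicle array, and the treated levels were closer together (SD 0.20) than the vehicle levels (SD 0.49). The change was 2.62 ± 0.16 (SE) on the log2 scale, or 6.17-fold, with an adjusted p of 4.25e-08. A second Slc19a2 probe set, with a mean of 3.45 that is not far above background, moved by 0.15, and the mean of both sets gave 1.39.

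Slc19a1, the reduced folate carrier, read 5.380, 5.386 and 5.002 on treated arrays of KPR4, KPR5 and KPR8, against 5.65, 6.38 and 5.75 on vehicle arrays. The treated arrays all lay below the vehicle arrays, with a change of -0.67 ± 0.18 (SE, adjusted p = 0.0164). Both other Slc19a1 probe sets fell further, by 1.03 and 0.82 on the log2 scale. The call ended without KPR5 (adjusted p = 0.123) and without KPR8 (adjusted p = 0.106). For the choline carrier genes Slc44a1 and Slc44a2 the changes were -0.14 and -0.05, with 95% intervals of -0.39 to 0.12 and -0.30 to 0.21. Other probe sets turned both directions, with 0.27 for a dim Slc44a1 set (mean 3.63) and 0.40 for an Slc44a2 set with a mean of 8.18 that was higher in each line, so neither direction is settled. The organic anion carrier gene Slc22a30 had a change of 0.49 (adjusted p = 0.0528).

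Carriers of nucleosides, nucleotide sugars and acetyl-CoA had 18 of 25 named genes tested. Of these, 3 rose and 0 fell, beside 10.5% and 8.94% of all genes tested. At an unadjusted p under 0.05 in the same limma fit, 6 were higher and 0 lower, beside 17.4% and 15.4% of all genes tested, and the class median was 0.20. These counts leave out Slc29a1 and Slc29a2 of this class, which were under the filter and lower in the fit without it, as given below. Slc33a1, which brings acetyl-CoA into the endoplasmic reticulum, read 7.995, 6.92 and 6.61 on treated arrays, against 6.67, 5.21 and 5.71 on vehicle arrays of KPR4, KPR5 and KPR8. It was higher in each line, although the vehicle level of KPR4 overlapped the treated levels of the other lines. The change was 1.31 ± 0.18 (SE), a 2.47-fold rise (adjusted p = 0.000191).

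Slc29a3, the nucleoside carrier of lysosomes, rose by 0.61 ± 0.17 (adjusted p = 0.021). That call ended without KPR4 (adjusted p = 0.21), without KPR8 (adjusted p = 0.0559) and with the mean of its probe sets (adjusted p = 0.0854). Slc35a1, the Golgi carrier of CMP-sialic acid, rose by 0.56 ± 0.18 (adjusted p = 0.0439), with a call that ended without KPR4 (adjusted p = 0.0922), without KPR5 (adjusted p = 0.306) and without an expression filter (adjusted p = 0.0705). The carriers of UDP-galactose, Slc35a2, and of UDP-glucuronic acid, Slc35d1, had changes of 0.28 and 0.46 that did not pass (adjusted p = 0.163 and 0.0631). The bright orphan members Slc35e1 and Slc35f5 had -0.19 and 0.27 (adjusted p = 0.509 and 0.182). Without KPR4, the line with its smallest change, Slc35d1 passed in limma (0.68, adjusted p = 0.0301), which follows from the line left out.

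Carriers of metals and haem had 23 of 27 named genes tested. Of these, 2 rose and 0 fell, beside 10.5% and 8.94% of all genes tested. In limma at an unadjusted p under 0.05 the counts were 7 higher and 0 lower of 23, beside the same shares of 17.4% and 15.4% over all genes. Slc31a2, an endosomal and lysosomal protein related to the copper importer Slc31a1, read 4.23, 5.33 and 4.53 on treated arrays, against 3.36, 3.33 and 3.56 on vehicle arrays. The vehicle levels were all under the filter level and close together, so this gene entered the test through its treated arrays alone. Its change was 1.28 ± 0.19 (SE, adjusted p = 0.000332, or 0.00127 in the fit without a filter), and the second probe set, with a mean of 3.26, moved by 0.37.

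Slc48a1, which exports haem from endosomes and lysosomes, read 8.49, 7.75 and 6.75 on treated arrays, against 7.54, 6.93 and 6.22 on vehicle arrays of KPR4, KPR5 and KPR8. Each line was higher with the drug, by 0.77 ± 0.17 on average (SE, adjusted p = 0.00424), and another probe set gave 0.68. The magnesium carrier gene Slc41a1 had every treated array above every vehicle array, with a change of 0.51 that did not pass (adjusted p = 0.0643). The zinc importer genes Slc39a1 and Slc39a4 had changes of 0.34 and 0.45 (adjusted p = 0.0734 and 0.0526). Those of the zinc exporter genes Slc30a4 and Slc30a5 were 0.09 and -0.20.

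In the mitochondrial carrier family, 23 of 33 named genes were tested. Of these, 4 rose and 0 fell, beside 10.5% and 8.94% of all genes tested, although the class median was -0.11. At an unadjusted p under 0.05, limma gave 5 higher and 3 lower of 23, near the shares of 17.4% and 15.4% over all genes. Slc25a36, a carrier of pyrimidine nucleotides, read 10.52, 9.93 and 10.82 on treated arrays, against 9.96, 9.12 and 9.75 on vehicle arrays. Slc25a20, the exchanger that brings acylcarnitines into mitochondria for fatty acid oxidation, read 11.04, 10.03 and 10.06 on treated arrays, against 10.56, 8.85 and 9.32 on vehicle arrays. Both rose in each of KPR4, KPR5 and KPR8, by 0.81 ± 0.13 for Slc25a36 (adjusted p = 0.000604) and 0.80 ± 0.14 for Slc25a20 (SE, adjusted p = 0.00112). Their second probe sets gave 0.76 and 0.62.

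Slc25a17, a peroxisomal member of the family that carries CoA and other cofactors, rose by 0.63 ± 0.16 (SE, adjusted p = 0.0151), with all treated arrays above all vehicle arrays. Its call ended without KPR4 (adjusted p = 0.0743), without KPR8 (adjusted p = 0.0917) and with the mean of its probe sets (adjusted p = 0.099), of which the second lay at background with a mean of 1.62. Slc25a48 rose by 0.49 ± 0.16 (adjusted p = 0.0398), from levels close to the filter, and lost the call without any 1 of the 3 lines (adjusted p = 0.0581 to 0.23) and without the filter (adjusted p = 0.0566). The adenine nucleotide exchanger genes Slc25a4 and Slc25a5 had changes of -0.18 and 0.12, with 95% intervals of -0.37 to 0.01 and -0.08 to 0.33. Other probe sets of Slc25a5 ran from -0.62 to 0.08 and those of Slc25a4 from -0.23 to 0.25, so the direction of neither is settled. For the phosphate carrier gene Slc25a3 the change was -0.14.

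**Figure D2:**
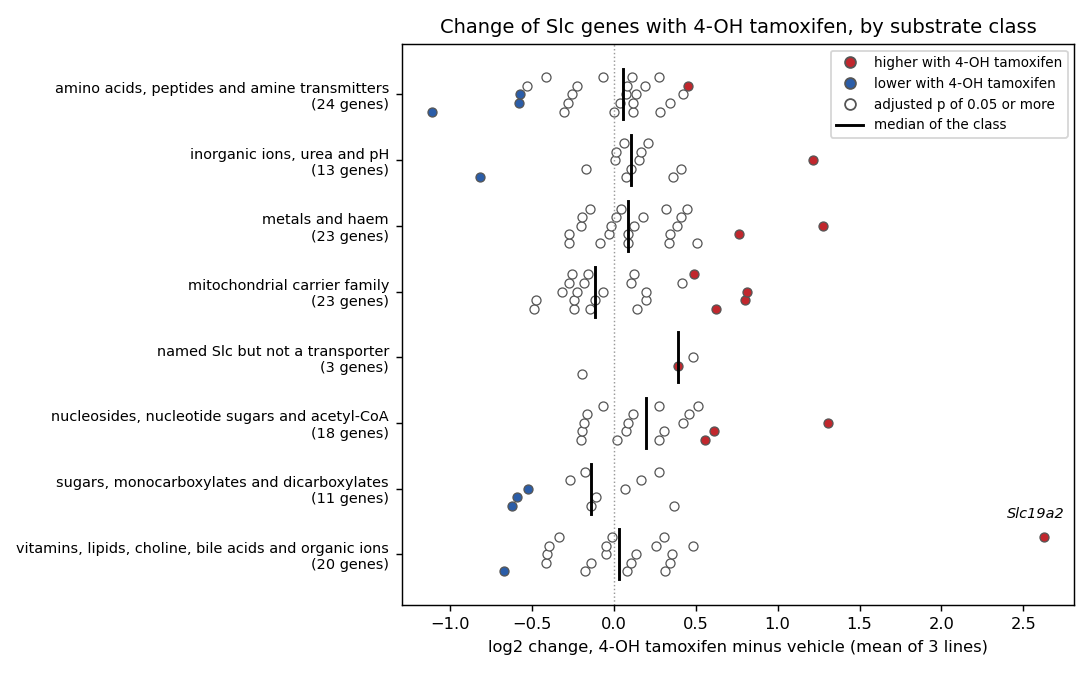
Mean log2 change with 4-OH tamoxifen of each of the 135 Slc genes, by substrate class. Red and blue points are genes higher or lower at an adjusted p under 0.05, open points are the others, and black bars are class medians, which run from -0.14 for sugars and monocarboxylates to 0.39 for the 3 genes that are not transporters; Slc19a2 stands alone at 2.62.

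Carriers of inorganic ions and urea had 13 of 39 named genes tested. Of these, 1 rose and 1 fell, beside 10.5% and 8.94% of all genes tested. The limma counts at an unadjusted p under 0.05 were 3 higher and 1 lower of 13, beside 17.4% and 15.4% of all genes tested. Slc12a4, the potassium-chloride cotransporter of cell volume control, read 7.47, 7.24 and 6.25 on treated arrays, against 5.48, 5.99 and 5.84 on vehicle arrays of KPR4, KPR5 and KPR8. The groups did not overlap, but the rise was uneven, at 1.99, 1.25 and 0.42 in the 3 lines. Its mean was 1.22 ± 0.23 (SE, adjusted p = 0.00197).

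Slc14a1, the urea carrier of red cells and kidney, read 7.67, 3.54 and 5.72 on treated arrays, against 8.28, 4.50 and 6.58 on vehicle arrays. Its levels differed far more between lines than between treatments, and within each line the treated array was lower. The change was -0.81 ± 0.17 (SE, adjusted p = 0.00327), and a dimmer probe set with a mean of 4.07 gave -0.21. Slc12a2, the sodium-potassium-chloride cotransporter, had a change of 0.02 with a 95% interval of -0.19 to 0.22, and its other probe sets gave -0.11 and -0.05. The anion exchanger gene Slc4a2 had a change of 0.41 (adjusted p = 0.107).

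Carriers of amino acids, peptides and amine transmitters had 24 of 55 named genes tested. Of these, 3 were lower and 1 higher, beside 8.94% and 10.5% of all genes tested. With an unadjusted p under 0.05 in limma there were 4 lower and 2 higher of 24, beside 15.4% and 17.4% of all genes tested. The 3 that fell bring amino acids into cells. Slc7a5, the light chain of the LAT1 exchanger of leucine and other large neutral amino acids, read 7.56, 8.61 and 7.02 on treated arrays, against 8.29, 9.40 and 8.82 on vehicle arrays. It was lower in each line, and KPR8 had the largest difference (-1.80, against -0.73 in KPR4 and -0.79 in KPR5). The change was -1.11 ± 0.19 (SE), 2.15-fold lower, with an adjusted p of 0.00105.

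Slc1a5, which carries glutamine and other neutral amino acids, read 4.85, 5.46 and 4.93 on treated arrays, against 5.29, 5.96 and 5.71 on vehicle arrays (change -0.57 ± 0.16, adjusted p = 0.0238). Slc38a1, another glutamine carrier, read 4.43, 5.91 and 5.79 on treated arrays, against 5.03, 6.79 and 6.05 on vehicle arrays (change -0.58 ± 0.17, adjusted p = 0.0306). Both were lower in each line, by less than log2 1. The call of Slc1a5 ended without any 1 of the lines (adjusted p = 0.0531 to 0.123), and that of Slc38a1 without KPR4 (adjusted p = 0.109) or KPR5 (adjusted p = 0.189). The related glutamine carrier gene Slc38a2 had a change of 0.08, with a 95% interval of -0.17 to 0.33.

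The member that rose was Slc7a4 (0.46 ± 0.15, adjusted p = 0.0475), whose substrate is not settled and which passed the filter through its treated arrays alone. It read 4.20, 4.59 and 4.03 on treated arrays, against 3.90, 3.84 and 3.71 on vehicle arrays, and lost the call without any 1 of the lines (adjusted p = 0.068 to 0.266), without the filter (adjusted p = 0.0636), without the variance trend (adjusted p = 0.0622) and after quantile normalization (adjusted p = 0.0504).

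LAT1 and the cystine exchanger work only with the heavy chain 4F2hc, encoded by Slc3a2. Slc3a2 read 9.79, 10.02 and 8.34 on treated arrays, against 9.49, 9.74 and 9.58 on vehicle arrays of KPR4, KPR5 and KPR8. The treated KPR8 array was low, with changes of 0.29, 0.28 and -1.23 in the 3 lines, and the mean change of -0.22 did not pass (adjusted p = 0.545). Slc1a4, a carrier of serine, alanine and cysteine, had line changes of 0.10, -0.46 and -1.23 in the same order, with a mean of -0.53 (adjusted p = 0.0623). Without KPR4, the line where it rose, the fall of Slc1a4 passed in limma (-0.84, adjusted p = 0.0011). Leaving out that line makes the mean fall larger by itself, so this pass is no separate evidence of a fall. Its dimmer probe sets, with means of 4.62 and 4.11, changed by -0.20 and -0.13. They gave 0.30 and -0.12 in KPR5, and -1.20 and -0.56 in KPR8. With the mean of its probe sets, limma gave -0.29 (adjusted p = 0.401), so the fall outside KPR8 rests on the brightest set. Slc7a6, another light chain that pairs with 4F2hc, had a change of -0.06, with a 95% interval of -0.35 to 0.23, and another probe set gave 0.09.

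Falls of log2 1 or more in KPR8 were those of Slc7a5, Slc3a2, Slc1a4 and the mitochondrial carrier genes Slc25a10 and Slc25a28, or 3.70% of the members against 2.13% of all genes tested. In KPR5 such falls were those of Slc6a6 and Slc22a21 (1.48% against 1.37%), and KPR4 had none (0 of 135, against 1.91%). Rises of that size were 3 in KPR4 (2.22%, against 2.83%), 5 in KPR5 (3.70%, against 3.68%) and 3 in KPR8 (2.22%, against 2.26%), and Slc19a2 was among them in each line. Of the 135 genes, 63 moved the same way in all 3 lines, 46.7% against 51.7% of all genes tested.

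**Figure D3:**
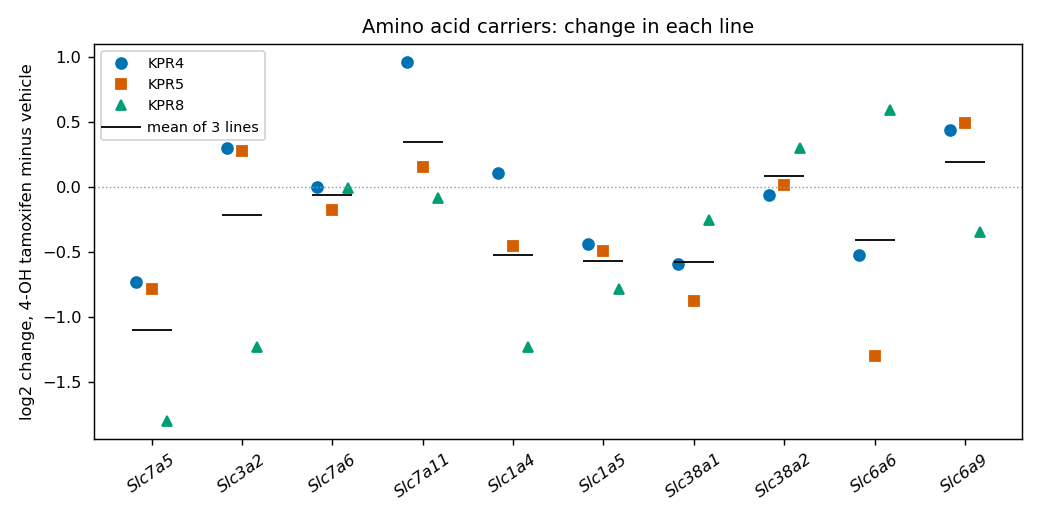
Log2 change with 4-OH tamoxifen in KPR4, KPR5 and KPR8 for 10 amino acid carrier genes, with the mean of the 3 lines as a bar. Slc7a5, Slc1a5 and Slc38a1 are below 0 in each line, Slc3a2 and Slc1a4 are far below 0 in KPR8 alone (-1.23 for both), and Slc7a11 is near 1 in KPR4 alone (0.96).

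Carriers of sugars and monocarboxylates had 11 of 32 named genes tested, and 3 fell and 0 rose, beside 8.94% lower and 10.5% higher among all genes tested. These 3 were the tested genes of the monocarboxylate family SLC16, of which 7 were named on the array. At an unadjusted p under 0.05 in limma, 1 was higher and 3 were lower, beside 17.4% and 15.4% of all genes tested. Slc37a2 of this class was under the filter and higher in the fit without it, as given below. Slc16a1, the carrier MCT1 of lactate and pyruvate, read 10.75, 9.76 and 10.07 on treated arrays, against 11.07, 10.62 and 10.47 on vehicle arrays (change -0.52 ± 0.13, adjusted p = 0.0108). Slc16a3, the lactate exporter MCT4, read 3.15, 4.64 and 2.80 on treated arrays, against 4.06, 5.48 and 2.91 on vehicle arrays (change -0.62 ± 0.17, adjusted p = 0.0168). In KPR8 it was at background on both arrays, and on the treated array of KPR4 it was close to background. Slc16a6, encoding MCT7, read 4.54, 4.23 and 4.36 on treated arrays, against 5.05, 5.08 and 4.77 on vehicle arrays, without overlap (change -0.59 ± 0.16, adjusted p = 0.0168).

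Each of these calls depended on KPR5, without which the adjusted p was 0.119 for Slc16a1, 0.0628 for Slc16a3 and 0.12 for Slc16a6. That of Slc16a3 also ended without KPR4 (adjusted p = 0.114). Bsg, the chaperone that MCT1 and MCT4 need at the cell surface, had a change of -0.29 ± 0.13 (adjusted p = 0.141). Slc2a1, the glucose carrier GLUT1, read 11.96, 11.73 and 11.90 on treated arrays, against 11.75, 11.65 and 11.68 on vehicle arrays. Its change of 0.17 did not pass (adjusted p = 0.249), with a 95% interval of -0.04 to 0.38, and its other probe sets gave -0.06 and -0.09. Slc37a3, of the sugar phosphate family, had 0.37 (adjusted p = 0.127).

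Of 8 carrier genes described as p53 targets in other systems, 5 were tested. Slc19a2 and Slc12a4 were higher and 0 were lower, beside 10.5% and 8.94% of all genes tested. Slc7a11, the cystine carrier, read 6.75, 4.62 and 3.49 on treated arrays, against 5.79, 4.46 and 3.57 on vehicle arrays of KPR4, KPR5 and KPR8. It was higher by 0.96 in KPR4 and moved by 0.15 and -0.09 in the others, and the mean of 0.34 did not pass (adjusted p = 0.235, 95% interval -0.07 to 0.75). In KPR8 both arrays lay under log2 4, not far above background, so a fall there could hardly show. The taurine carrier gene Slc6a6 had changes of -0.53, -1.30 and 0.59 in KPR4, KPR5 and KPR8 (mean -0.41, adjusted p = 0.268). Without KPR8, the line that moved the other way, it passed (-0.92, adjusted p = 0.0295). Dimmer Slc6a6 probe sets, with means of 4.68 and 2.43, changed by -0.04 and -0.12. With the mean of its probe sets, limma gave -0.19 (adjusted p = 0.489).

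The other 3 of that list were under the filter. Slc2a9, a urate carrier, read 5.10 on the treated array of KPR4, 3.28 on that of KPR5 and 3.27 on that of KPR8, against 2.85, 2.85 and 3.17 on the vehicle arrays. Only that 1 array reached log2 4, and the change in the fit without a filter was 0.93 ± 0.29 (adjusted p = 0.0653). The insulin-responsive glucose carrier gene Slc2a4 lay between 2.73 and 2.91, at background, and the arginine carrier gene Slc7a3 between 3.39 and 3.92.

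In the limma fit without a filter, 5 further members passed, 3 higher and 2 lower. The equilibrative nucleoside carrier genes Slc29a1 and Slc29a2 changed by -0.74 ± 0.13 (adjusted p = 0.00308) and -0.75 ± 0.14 (adjusted p = 0.00381). Slc7a7, which exports basic amino acids with 4F2hc, changed by 0.61 ± 0.15 (adjusted p = 0.0221), Slc37a2 by 0.54 ± 0.11 (adjusted p = 0.00637) and Slc22a17 by 0.44 ± 0.12 (adjusted p = 0.0424). None of the 5 reached log2 4 on more than 2 arrays. Slc29a1 had 3.92, 3.29 and 3.07 on treated arrays of KPR4, KPR5 and KPR8, against 4.86, 3.91 and 3.75 on vehicle arrays.

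Of the 3 genes that are named Slc but encode no transporter, Slc9a3r1, the scaffold protein NHERF1 that anchors carriers and channels under the membrane, rose. It read 12.0035, 11.79 and 12.29 on treated arrays, against 11.74, 11.23 and 11.94 on vehicle arrays (change 0.39 ± 0.10, adjusted p = 0.0134). Another bright probe set gave 0.46 and a dimmer one 0.06, and the call ended without KPR5 (adjusted p = 0.111), without the variance trend (adjusted p = 0.0835) and with the mean of its probe sets (adjusted p = 0.0935). The related scaffold gene Slc9a3r2 had 0.48 (adjusted p = 0.0774). It passed in limma without KPR8, the line with its smallest change (0.77, adjusted p = 0.0213), which follows from the line left out. Another Slc9a3r2 probe set with a mean of 8.03 gave 0.50, and dimmer ones ran from -0.05 to 0.22. Slc4a1ap had -0.19.

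Of a list of 42 carriers with no Slc symbol, 17 were tested, 2 rose and 1 fell, near the 10.5% and 8.94% of all genes tested. Mfsd1 of the lysosome rose by 0.66 ± 0.14 and the sideroflexin gene Sfxn3 by 0.51 ± 0.13, and Sfxn1, a mitochondrial serine carrier, changed by -0.62 ± 0.15. Of 14 tested pumps and partner proteins, 1 rose and 4 fell, beside 10.5% and 8.94% of all genes tested. Tfrc, the transferrin receptor that takes up iron, was lower (-0.57 ± 0.11, SE, adjusted p = 0.00171). The sodium pump builds the gradient that many carriers use, and its beta subunit genes Atp1b1 and Atp1b3 changed by -0.71 ± 0.19 and -0.51 ± 0.14. Stk39, a kinase that regulates cation-chloride cotransporters, changed by -0.69 ± 0.17, and Fxyd3, a regulator of the sodium pump, rose by 0.97 ± 0.14.

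In limma's F-test 63 of the 135 genes, 46.7%, differed between lines, against a background of 42.0% of all genes tested. Both a line difference and a treatment change were called in 15 of the 135, near the share of all genes (867 of 7644). The 2 arrays of a line, 1 per treatment, are its replicates here, so the p-values measure the spread between these arrays, which may be technical. Differences of log2 1 or more between the highest and lowest line were found in 26 members (19.3%, against 14.0%). With 1 of the 6 arrays left out, the count of members past the F-test was 49 to 61, and without the treatment term it was 12.

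Over all members together, KPR4 was most often the line with the higher level. It was above KPR5 in 27 members and below it in 13 (20.0% and 9.63%, against 12.5% and 15.0% of all genes tested). It was above KPR8 in 35 and below it in 14 (25.9% and 10.4%, against 15.6% and 14.7%). KPR5 was above KPR8 in 20 and below it in 10 (14.8% and 7.41%, against 10.5% and 8.65%). The higher level of KPR4 did not hold in every class. Among amino acid and peptide carriers KPR4 was above KPR5 in 3 and below it in 6, and above KPR8 in 6 and below it in 4. Among vitamin and lipid carriers KPR4 was above KPR5 in 2 and below it in 3, and above KPR8 in 3 and below it in 4. By class, 16 of 24 amino acid and peptide carriers differed between lines, 8 of 18 carriers of nucleotide sugars and related substrates, 9 of 23 mitochondrial carriers and 6 of 23 metal carriers. The counts were 7 of 13 for inorganic ions and urea, 10 of 20 for vitamins and lipids, 4 of 11 for sugars and monocarboxylates and 3 of 3 for the non-transporters, all beside 42.0% of all genes tested.

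**Figure D4:**
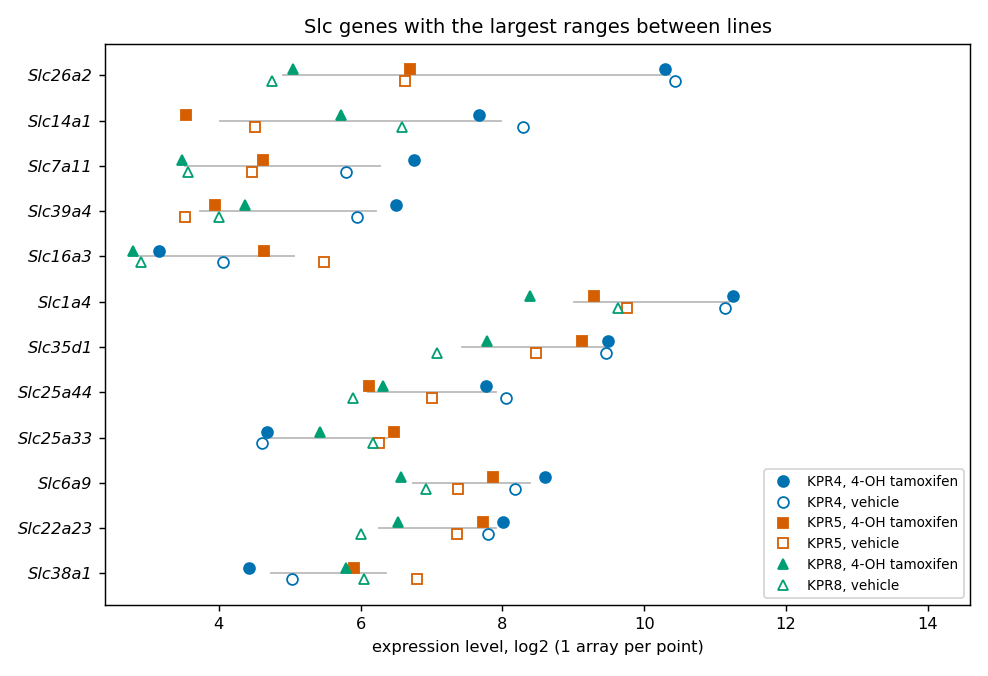
Log2 level on each of the 6 arrays for the 12 Slc genes with the largest ranges between lines, with filled symbols for 4-OH tamoxifen and open symbols for vehicle. The grey bar joins the lowest and the highest line mean, and Slc26a2 spans 5.46 between KPR4 and KPR8.

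Slc26a2, the sulfate carrier that supplies sulfation of proteoglycans, showed the largest range. It read 10.30 with the drug and 10.43 with vehicle in KPR4, 6.69 and 6.63 in KPR5, and 5.04 and 4.75 in KPR8. The 3 lines were ordered without overlap, while the treatments differed by 0.07 on average. The mean of KPR4 exceeded that of KPR5 by 3.70 (adjusted p = 5.57e-09) and that of KPR8 by 5.46 (adjusted p = 4.5e-11), and KPR5 exceeded KPR8 by 1.76. A second Slc26a2 probe set with a mean of 2.57, at background, had a range of 0.60.

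Slc14a1, described above for its fall, had line means of 7.98 in KPR4, 4.02 in KPR5 and 6.15 in KPR8, a range of 3.96 (F-test adjusted p = 7.56e-09). Slc7a11 had line means of 6.27, 4.54 and 3.53 in KPR4, KPR5 and KPR8, each pair of lines being different (adjusted p = 7.47e-05, 5.85e-07 and 0.00876). Its level in KPR8 was under log2 4 and not far above background. Slc39a4, the zinc importer ZIP4 of the gut, had 6.22, 3.73 and 4.18. Its level in KPR4 was above both others, and KPR5 did not differ from KPR8 beyond the spread (adjusted p = 0.101).

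Slc16a3 ran another way, with line means of 3.61, 5.06 and 2.85 in KPR4, KPR5 and KPR8, highest in KPR5 and at background in KPR8, so its range of 2.21 is a lower bound. KPR4 minus KPR5 was -1.46 ± 0.20 in limma (SE, adjusted p = 0.000104), although the KPR4 mean of 3.61 is itself not far above background. Slc1a4 had 11.20, 9.52 and 9.01, and KPR5 did not differ from KPR8 beyond the spread (adjusted p = 0.13). Slc35d1 was ordered the same way, with 9.48, 8.80 and 7.43, each pair being different (adjusted p = 0.021, 2.44e-06 and 0.000431). The branched-chain amino acid carrier of mitochondria, Slc25a44, had 7.90, 6.56 and 6.10, the difference of KPR5 and KPR8 being within the spread (adjusted p = 0.237).

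The glycine carrier gene Slc6a9 had 8.39, 7.62 and 6.74 in KPR4, KPR5 and KPR8, and Slc22a23, a family member without a settled substrate, 7.90, 7.54 and 6.26. For Slc22a23 the difference between KPR4 and KPR5 was within the spread (adjusted p = 0.199). In contrast, KPR4 was the lowest line for Slc38a1, with 4.73 against 6.35 in KPR5 and 5.92 in KPR8, and for the mitochondrial nucleotide carrier gene Slc25a33, with 4.65 against 6.37 and 5.79. KPR5 and KPR8 did not differ beyond the spread for either (adjusted p = 0.167 and 0.105). Without the treatment term the line calls of Slc25a44 and Slc38a1 ended (adjusted p = 0.0547 and 0.0786). Slc7a5 was highest in KPR5, with line means of 7.93, 9.01 and 7.92, and the difference of KPR4 and KPR8 was within the spread (adjusted p = 0.99).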

How the data were processed

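Gene expression was measured on 6 arrays, 1 per line and treatment. The authors deposited log2 values for each probe set; the submitters' processing notes name GCRMA 2.20.0 and R 2.11.0. Which arrays entered the GCRMA run is not given. GCRMA corrects background by probe sequence and equalises the arrays (medians 4.56 to 4.63), so a shift common to most genes would not show. Of 22690 probe sets, 20380 have 1 gene symbol in GEO's platform annotation. Each gene took its brightest probe set by mean over the arrays, and was tested if that set reached log2 4 on at least 3 arrays. Entrez identifiers tied all 262 Slc symbols to RefSeq's GRCm38.p6 table.

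Tests used limma 3.58.1 in R 4.3.3 over all 7644 genes, with terms for line and treatment, a variance trend, 2-sided p-values, Benjamini-Hochberg adjustment over all genes and a threshold of 0.05. The paired design rests on the labels, where each line received both treatments: deviations from the treatment means correlated at 0.876, 0.737 and 0.761 within KPR4, KPR5 and KPR8. There are 2 residual degrees of freedom, to which moderation adds 12.9. Fits without 1 line have fewer, so their p-values rest mostly on the variance shared between genes and little on the gene's own spread. Errors of changes are limma standard errors. On simulated data from the same 7644 genes, limma recovered 54% of genes changed by log2 0.5 and 100% of those changed by 1. There 50 genes changed at each size, equally in every line, with independent normal noise and most genes left unchanged. Measured changes often differed between lines, so these shares may overstate what could be detected here. The number of arrays limits the precision, and levels of different probe sets are not compared.

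Members and lists were chosen with earlier results of these data known. Classes follow gene families, and placing Slc4a1ap with the non-transporters, and the class names, were settled after the data were seen. Named genes were those with a change of log2 1 or more, the 10 largest rises and falls, the 3 furthest from 0 and the 3 with the highest means in each class, the 12 largest line ranges, the listed p53 targets and members that passed only without the filter. Slc25a48, Slc7a4, Slc7a6, Slc25a10, Slc25a28, Slc22a21 and Slc40a1 were named after their values were seen. Alternatives changed the filter, the probe set rule, the variance trend, the scaling, the model terms and the lines included.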

Additional observations from a re-analysis of the deposited data

Results flagged for a closer look

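2 of the named members moved by at least log2 0.5 in opposite directions in different lines. The phosphate carrier gene Slc20a1 changed by 0.66 in KPR4 and by -0.52 in KPR8, with 0.05 in KPR5. It read 8.44, 9.32 and 8.401 on treated arrays of KPR4, KPR5 and KPR8, against 7.78, 9.27 and 8.92 on vehicle arrays. A dimmer Slc20a1 probe set, with a mean of 4.54, did not show this, with 0.17, -0.15 and 0.08 in these lines. Slc6a6 changed by 0.59 in KPR8 and by -1.30 in KPR5, with -0.53 in KPR4. Its probe set with a mean of 4.68 changed by only 0.09, -0.10 and -0.10 in the same order. The iron exporter gene Slc40a1, not among the named genes, moved by -0.67 in KPR4, while KPR5 had 0.55 and KPR8 0.50. With 1 array per line and treatment these differences between lines were not tested.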

How the results depend on the processing

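Without the line term (no replicate block), limma called 1 member higher, which was Slc19a2, and 0 lower, with 7 higher and 3 lower at an unadjusted p under 0.05. Leaving out 1 line gave 9 to 11 higher and 2 to 7 lower members. Without a treatment term, 12 members differed between lines, and 49 to 61 did with 1 array left out. The median change of the members was 0.0018 without a filter, which adds the 127 genes near background, and 0.04 to 0.08 without 1 line. No filter, a stricter filter, the mean of probe sets, no variance trend, centring on medians and quantile normalization left the counts of higher, lower and line-dependent members within 1.5 times the reported ones, and no called change turned its direction. The members behind the counts varied more. Of 13 higher members, 10 stayed called without a filter and 8 with the mean of probe sets, and all 8 lower members stayed in both. Of 63 line-dependent members, 55 and 49 stayed. Slc31a2 was not tested under the stricter filter or with the mean of probe sets. The called members Slc25a48, Slc7a4, Slc16a3 and Slc16a6 were not tested under the stricter filter either. For 12 of the 21 called members the call ended without at least 1 line. The number of arrays and the low signal of many probe sets limit what could be detected.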
